A study of Sus scrofa with 21 samples.

Results

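Eosinophil and basophil genes were examined in whole blood of SLAdd minipigs (DD), an inbred line kept homozygous at the swine leukocyte antigen locus, and of Large White pigs (LW), a commercial breed that served as controls. All the pigs were 60 days old, received a standard diet ad libitum and gave blood into RNA-stabilizing tubes. The 10 DD pigs came from 5 sows and the 11 LW pigs from 6 sows, so that siblings are among the animals, and the DD pigs stand for a single herd. Line, herd and inbreeding cannot be told apart in this design. Total RNA was hybridized to one-colour Agilent arrays designed for the pig, with 60305 probes that are not controls, and each of the 3 chips carried both breeds. The genes chosen were IL5RA, CCR3, HDC, GATA2, FCER1A, MS4A2 and EPX, and their probes were found by the gene name written in the scanner files. Of these 7 genes, 5 were named there, by 6 probes, among 47029 gene names in all. FCER1A was named by no probe, but 1 probe is described in the same files as the alpha chain of the high affinity receptor for IgE. No probe was found for EPX, the eosinophil peroxidase, by name, accession or description, and it was not analysed here.

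Eosinophils and basophils are the rarer granulocytes of blood. Eosinophils are driven by interleukin 5 through a receptor made of a specific alpha chain and a beta chain shared with the receptors of interleukin 3 and GM-CSF, and they follow eotaxins into tissues through the chemokine receptor CCR3. Basophils carry the high affinity receptor for IgE, whose alpha chain binds the antibody, whose beta chain amplifies the signal and whose gamma chain transmits it, and they release histamine made by histidine decarboxylase. GATA2 is a transcription factor of blood progenitors that is kept in basophils, mast cells and megakaryocytes. From RNA of whole blood alone, fewer cells of a type and less RNA per cell cannot be told apart. The study also counted blood cells, and these counts were not used here.

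Each gene was read by short oligonucleotides, and the readings rest on how these bind. Whole probes are shown for 4 genes, the cytokine receptor, the enzyme and the alpha and beta chains of the IgE receptor.
IL5RA, probe A_72_P444161: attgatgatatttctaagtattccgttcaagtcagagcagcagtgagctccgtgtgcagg
HDC, probe O9365: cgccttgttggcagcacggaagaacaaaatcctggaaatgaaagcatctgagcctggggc
MS4A2, probe A_72_P178066: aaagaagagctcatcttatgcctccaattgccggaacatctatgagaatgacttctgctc
FCER1 alpha chain, probe A_72_P290294: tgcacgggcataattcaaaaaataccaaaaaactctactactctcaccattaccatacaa
The HDC probe carries the accession of the human transcript in the array's own design, so its match to the pig transcript is not known here. For GATA2, the first 30 bases of 2 probes are shown, since the probes gave different readings of 1 transcript. The first is the probe that bears the symbol and the second is named only by the accession of the same RefSeq transcript.
GATA2, probe A_72_P146636: ttttttctgctaacttctcaaccccctcct
GATA2, probe named by accession: acataatttattttgctcttgtttctaaca
Where these oligonucleotides lie in the pig genome was not analysed here.

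GATA2, as read by the probe that bears its symbol, was the single member that rose in DD pigs past the adjusted p threshold of 0.05. CCR3 and HDC were higher on average in DD pigs without passing it. MS4A2 differed by −0.03 and the probe described as the alpha chain by −0.19 on the log2 scale, and neither passed. IL5RA was not measured above background. Of the 5 genes tested, 1 passed, beside 21.2% of the 34510 gene names tested with limma. Of these names, 7949 were known symbols, so the shares given here are over names on the array and not over distinct genes. Higher in DD pigs were 11.4% of all gene names, and lower were 9.8%. Without adjustment, 3 of the 5 genes had a limma p below 0.05, as did 12711 of the 34510 gene names tested.

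The DD arrays were dimmer on average than the LW arrays. The brightness of an array, taken as its processed signal at the 75th percentile on the log2 scale, was 7.53 ± 0.54 in DD pigs (SD, n = 10) and 8.22 ± 0.38 in LW pigs (SD, n = 11). The mean brightness of DD and LW arrays was 7.95 and 8.02 for chip 1, 7.55 and 8.31 for chip 2, and 7.09 and 8.36 for chip 3. The methods of the study name a technical bias of the third chip. The share of probes with a signal well above background ranged over the arrays from 44.7% to 63.8%. The deposited log2 values had been quantile normalized, which gives every array the same distribution of values.

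**Figure D1:**
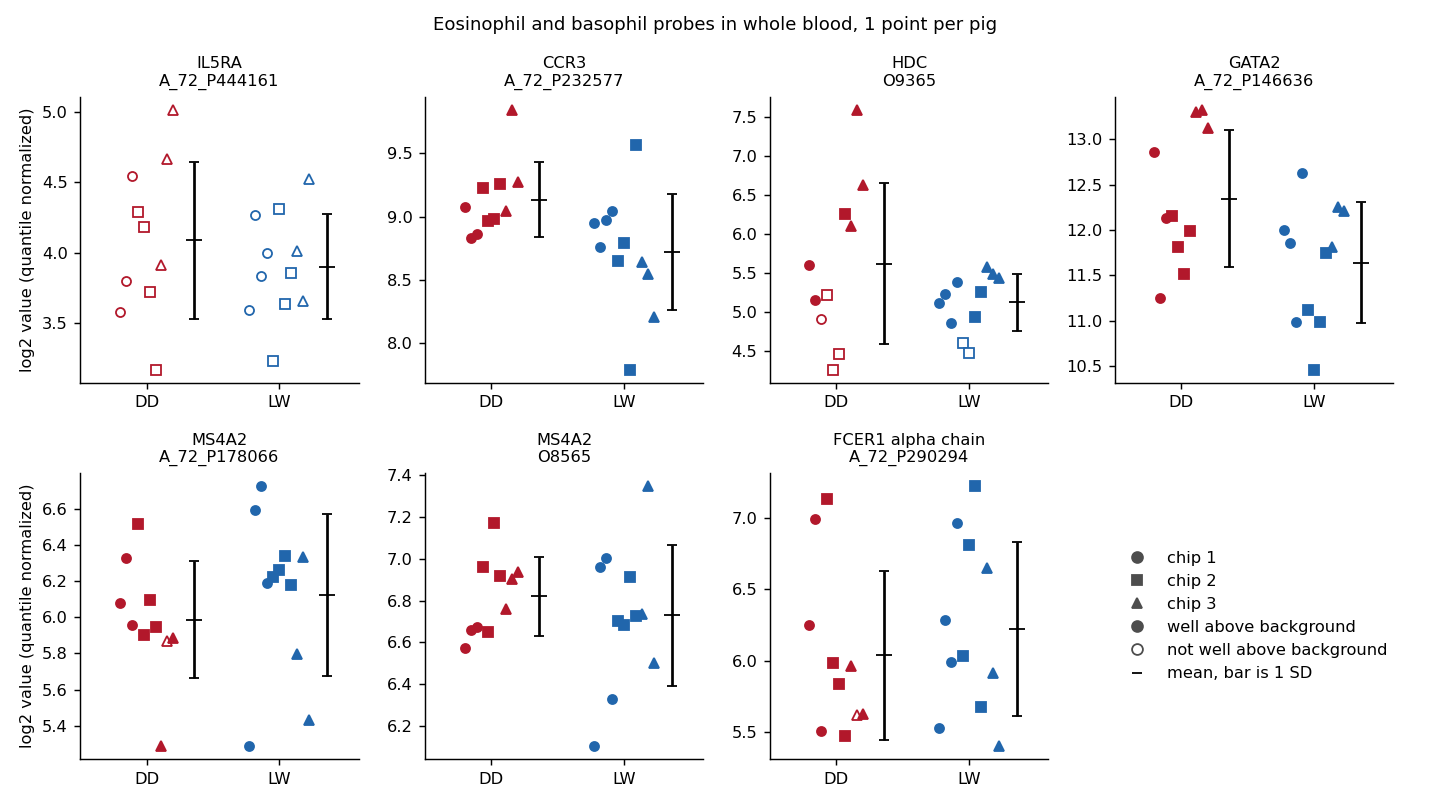
Deposited log2 values (y axis) of the 6 member probes and of the probe described as the FCER1 alpha chain in 10 DD and 11 LW pigs, with 1 point per pig, the shape giving the chip, open points not well above background, and black bars giving the mean and 1 SD. In the GATA2 panel 4 DD pigs lie above all LW pigs, in the IL5RA panel all 21 points are open, and the breeds overlap in every panel.

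The transcription factor GATA2 lies in Sscrofa11.1 on chromosome 13, bases 71981139 to 71997626. In DD pigs its lowest log2 value was 11.26, its median 12.14 and its highest 13.32. In LW pigs the lowest was 10.46, the median 11.81 and the highest 12.63. The breeds overlapped, with 4 DD pigs above all LW pigs and 4 LW pigs below all DD pigs. The mean was 12.35 ± 0.75 in DD pigs (SD, n = 10) and 11.64 ± 0.66 in LW pigs (SD, n = 11). With chip and sow in the model, GATA2 was 0.71 higher in DD pigs on the log2 scale (SE 0.20, 95% confidence interval 0.30 to 1.12, limma adjusted p = 0.0212), or 1.64-fold. The probe was well above background on all arrays of both breeds. On means of litters, 4 of 5 DD litters lay above every LW litter (two-sided exact permutation over 462 divisions, p = 0.0108, where 0.00216 is the smallest p possible).

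The GATA2 difference was not of 1 size on the 3 chips. The DD mean of 12.08 and the LW mean of 11.87 were 0.21 apart for chip 1. For chip 2 the means of 11.87 and 11.08 were 0.79 apart, and for chip 3 those of 13.25 and 12.09 were 1.16 apart. The differences thus ran in the order of the brightness gaps between breeds. A test of whether the breed difference varied among chips did not pass the threshold for GATA2 (limma interaction, adjusted p = 0.556). This test was chosen after seeing the data, and 0 of 34510 gene names passed it. Its outcome for GATA2 thus does not show that the difference was the same on all chips. Without chip 3 the difference was 0.51 (limma adjusted p = 0.491), and without chip 2 it was 0.61 (limma adjusted p = 0.0766). With array brightness as a further covariate the difference was 0.12 (limma adjusted p = 0.946).

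**Figure D2:**
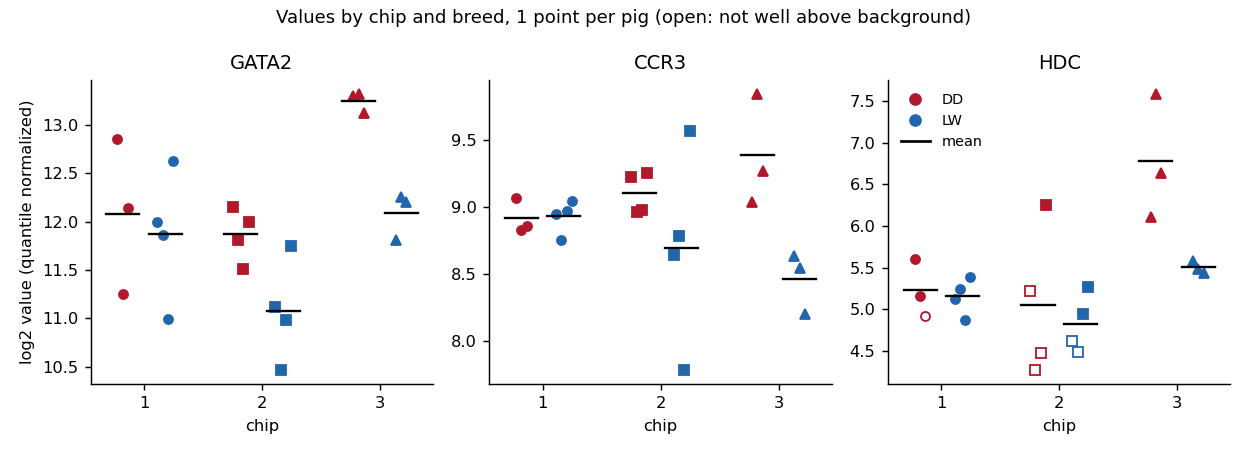
Deposited log2 values (y axis) of GATA2, CCR3 and HDC by chip (x axis) in DD (red) and LW (blue) pigs, with 1 point per pig, black lines for the means and open points for signals not well above background. The breed means of GATA2 are 0.21 apart on chip 1 and 1.16 apart on chip 3, and those of CCR3 are 0.01 apart on chip 1 and 0.92 apart on chip 3.

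The second GATA2 probe gave another picture. It was well above background in 1 of 10 DD pigs and 2 of 11 LW pigs, and its spot signal was 0.91 to 2.28 times the local background in DD pigs and 0.78 to 2.72 times in LW pigs. The probe that bears the symbol read 108 to 280 times the local background in DD pigs, with a median of 138, and 69.7 to 229 times in LW pigs, with a median of 128. These ratios of scanner signals are not normalized between arrays. After removal of chip and breed, the log2 values of both probes correlated at r = −0.22 over the 21 animals, given as a description. The single call among the members thus rests on 1 oligonucleotide. Which probe reads GATA2 transcripts was not tested.

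**Figure D3:**
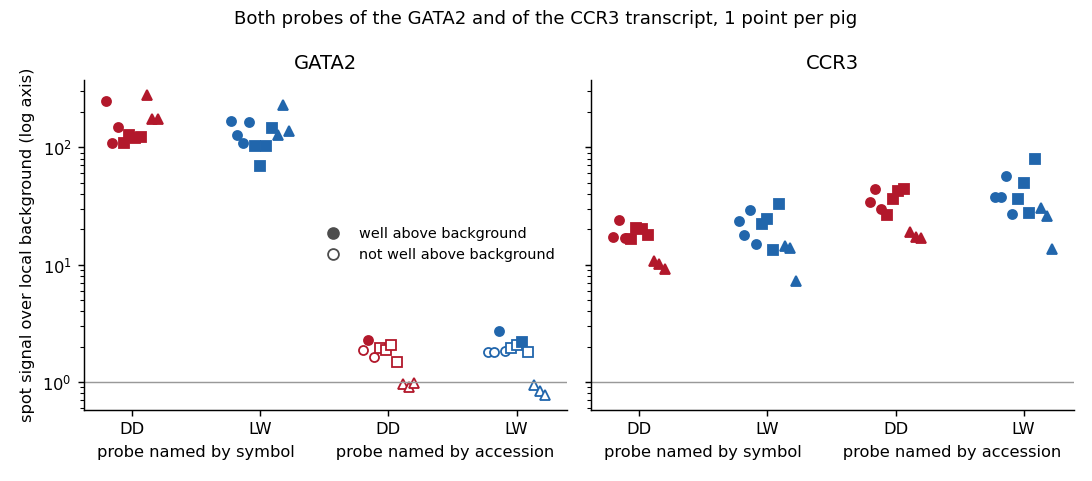
Spot signal over local background (log axis) of both probes of the GATA2 and of the CCR3 transcript, with 1 point per pig, red for DD and blue for LW, shape for the chip, and open points not well above background. The GATA2 probe named by symbol reads 69.7 to 280 in every pig while the probe named by accession reads 0.78 to 2.72, and both CCR3 probes are well above background in all 21 pigs.

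CCR3, the eotaxin receptor of eosinophils and basophils, lies on chromosome 13 from 29251950 to 29286470. Its log2 values in DD pigs had a lowest of 8.83, a median of 9.06 and a highest of 9.85. In LW pigs the lowest was 7.79, the median 8.76 and the highest 9.57. All 10 DD pigs were above the LW median and 7 LW pigs were below every DD pig, while LW_15, the highest of the LW pigs, exceeded all DD pigs but 1. The means were 9.13 ± 0.30 in DD pigs (SD, n = 10) and 8.72 ± 0.46 in LW pigs (SD, n = 11). CCR3 was 0.42 higher in DD pigs (SE 0.17, 95% confidence interval 0.08 to 0.77, limma adjusted p = 0.0709), which did not pass the threshold. The comparison of litter means gave a two-sided exact permutation p of 0.0563.

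The breed means of CCR3 were closest on chip 1. There the DD mean was 8.92 and the LW mean 8.93, while chip 2 gave 9.11 and 8.70 and chip 3 gave 9.39 and 8.46. The 3 DD pigs of chip 3 lay above its 3 LW pigs. The interaction of breed and chip, which passed for 0 of 34510 gene names, had a limma adjusted p of 0.463. With array brightness as a covariate the difference was 0.07 (limma adjusted p = 0.983). Before normalization, the spot signal was 9.09 to 24.1 times the local background in DD pigs, with a median of 17.0, and 7.21 to 32.6 times in LW pigs, with a median of 17.9. The DD pigs thus had the higher normalized values and the lower median ratio, and the ratios of the breeds overlapped.

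CCR3 could be read a second time. A probe named by the accession of the same RefSeq transcript was well above background on all arrays and correlated with the first at r = 0.97 over the 21 animals, after removal of chip and breed. Its log2 values were 9.67 to 10.66 in DD pigs, with a median of 9.96, and 8.76 to 10.74 in LW pigs, with a median of 9.79. It was 0.36 higher in DD pigs (SE 0.19, limma adjusted p = 0.214 over all single probes, of which 11.3% passed). Both CCR3 probes thus gave like sizes, and neither passed the threshold. The call changed when either LW_15 or DD_06 was left out. Without LW_15 the difference of the first probe was 0.53 (limma adjusted p = 0.0197), and without DD_06 it was 0.47 (limma adjusted p = 0.0437).

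IL5RA, the alpha chain that makes a cell responsive to interleukin 5, lies on chromosome 13 from 59651184 to 59692211. Its probe was well above background on none of the 21 arrays. The log2 values were 3.17 to 5.02 in DD pigs, with a median of 4.05, and 3.23 to 4.52 in LW pigs, with a median of 3.85. The breeds overlapped, and the spot signal was 0.92 to 2.29 times the local background in DD pigs and 0.88 to 1.94 times in LW pigs. The probe passed the filter on the lowest quartile of means and entered the model (limma adjusted p = 0.478), but no fold is given for a signal that was at background in both breeds.

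The receptor for IgE was read by its beta chain and by the probe described as its alpha chain. MS4A2, the beta chain, lies on chromosome 2 from 11400415 to 11420314 and had 2 probes. The first, A_72_P178066, read 5.29 to 6.52 in DD pigs, with a median of 5.95, and 5.29 to 6.73 in LW pigs, with a median of 6.22, and was well above background in 9 of 10 DD pigs and in all 11 LW pigs. The second, O8565, read 6.57 to 7.17 in DD pigs, with a median of 6.83, and 6.10 to 7.35 in LW pigs, with a median of 6.73, and was well above background on every array. The DD values lay within the LW range for both probes. The probes correlated at r = 0.82 over the 21 animals after removal of chip and breed.

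Averaged over both probes, MS4A2 was 6.40 ± 0.20 in DD pigs (SD, n = 10) and 6.43 ± 0.36 in LW pigs (SD, n = 11). The difference was −0.03 on the log2 scale, with a 95% confidence interval from −0.30 to 0.23 (SE 0.13, limma adjusted p = 0.872). Litter means gave a difference of 0.03 with a two-sided exact permutation p of 0.881. The single probes differed between breeds by −0.13 (SE 0.15, limma adjusted p = 0.605) and 0.07 (SE 0.12, limma adjusted p = 0.747).

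FCER1A lies on chromosome 4 from 91118867 to 91125448. The probe described as the alpha chain read 5.47 to 7.13 in DD pigs, with a median of 5.90, and 5.40 to 7.22 in LW pigs, with a median of 6.03. The DD values lay within the LW range. The difference was −0.19 (SE 0.23, 95% confidence interval −0.67 to 0.30, limma adjusted p = 0.587), and the litter means gave a two-sided exact permutation p of 0.706. It was well above background in 9 of 10 DD pigs and all 11 LW pigs.

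Identical oligonucleotides on the same array show how well such dim probes repeat. The sequence of the alpha chain probe occurs a second time on the array under another name. Both readings correlated at r = 0.91 over the 21 animals after removal of chip and breed, and the second was 0.41 ± 0.26 (SD, n = 21) higher on the log2 scale. Its difference between breeds was −0.15 (SE 0.26, limma adjusted p = 0.744). The sequence of O8565 has a repeat as well, with r = 0.72 and a mean gap of −0.05 ± 0.19 (SD, n = 21) between the readings. The second reading differed between breeds by −0.05 (SE 0.12, limma adjusted p = 0.838).

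**Figure D4:**
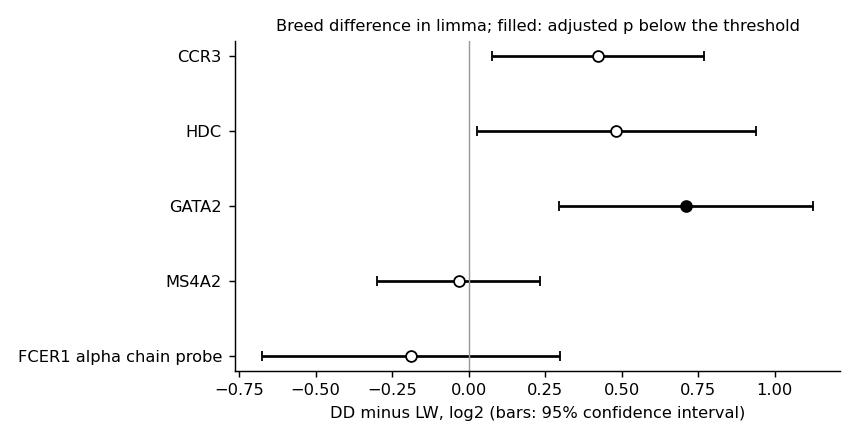
Breed difference (DD minus LW, log2, x axis) of the 4 member genes measured above background and of the probe described as the FCER1 alpha chain, with 95% confidence intervals from limma with chip and sow, filled where the adjusted p is below 0.05. GATA2 is filled at 0.71, the intervals of CCR3 and HDC lie above 0 before adjustment, and those of MS4A2 and the alpha chain span 0.

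HDC, the enzyme that makes histamine from histidine, lies on chromosome 1 from 121505677 to 121525416. Its log2 values in DD pigs had a lowest of 4.27, a median of 5.41 and a highest of 7.59. In LW pigs the lowest was 4.48, the median 5.24 and the highest 5.58. The DD pigs spread over a wider range: 5 of them lay above every LW pig and 2 lay below every LW pig. The means were 5.62 ± 1.03 in DD pigs (SD, n = 10) and 5.13 ± 0.36 in LW pigs (SD, n = 11). HDC was 0.48 higher in DD pigs (SE 0.22, 95% confidence interval 0.03 to 0.94, limma adjusted p = 0.115), which did not pass the threshold. Litter means gave a two-sided exact permutation p of 0.0519, with 4 of 5 DD litters above every LW litter.

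HDC was near the limit of detection. It was well above background in 6 of 10 DD pigs and 9 of 11 LW pigs, and the spot signal was 1.87 to 2.96 times the local background in DD pigs and 1.88 to 2.91 times in LW pigs. The medians of these ratios were 2.42 and 2.39. The 3 DD pigs of chip 3 had log2 values of 6.11 for DD_19, 7.59 for DD_21 and 6.63 for DD_23, and the 3 LW pigs of that chip had a mean of 5.50 ± 0.07 (SD, n = 3). On chip 3 the difference was 1.28, against 0.07 on chip 1 and 0.23 on chip 2. With array brightness as a covariate it was −0.13 (limma adjusted p = 0.951). DD_21 was also the dimmest array, with a brightness of 6.56.

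The members did not vary as a single group. With chip and breed removed, CCR3 and HDC correlated at r = 0.56, HDC and GATA2 at 0.50, and CCR3 and GATA2 at 0.45 over the 21 animals. MS4A2 correlated with CCR3 at −0.01, with HDC at 0.03 and with GATA2 at −0.28. MS4A2 and the alpha chain probe, both subunits of 1 receptor, correlated at 0.29. With the same adjustment, array brightness correlated with GATA2 at r = −0.79, with HDC at −0.74 and with CCR3 at −0.59. With MS4A2 it correlated at 0.15 and with the alpha chain probe at 0.16. The 3 members that correlated with each other thus also had the stronger correlations with brightness, and the part of brightness in their correlations was not tested. All these values are descriptions over animals that share litters and chips.

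The gene names most like each member were then searched for. The search covered 7948 other gene names with a known symbol that passed the filter on the lowest quartile of means. The highest of so many correlations over 21 animals are high in part through the search itself. They are thus not comparable with the correlations of single pairs of members. GATA2 was followed most closely by BEST2 (r = 0.96), MYH9 (r = 0.94) and TAGLN3 (r = 0.94). HDC was followed by ZNF444 (r = 0.91), NSMCE2 (r = 0.90) and PPARD (r = 0.89). CCR3 was followed by TBL1XR1 (r = 0.83), RPUSD1 (r = 0.81) and ACTN2 (r = 0.79). MS4A2 was followed by NCEH1 (r = 0.78), B9D2 (r = 0.77) and SYCP3 (r = 0.76), and the alpha chain probe by SERPINB8 (r = 0.80), KLHL2 (r = 0.78) and TNFRSF8 (r = 0.75). No member was among these lists. With the same adjustment, array brightness correlated with GATA2 at r = −0.79, with HDC at −0.74 and with CCR3 at −0.59. The part of brightness in these correlations, and in those with GATA2 given below, was not tested.

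The wider pathway was described by 76 further genes, of which the scanner files named 40 and the model tested 34. In DD pigs 3 were higher and 5 were lower past the adjusted p threshold, or 23.5% of those tested, close to the 21.2% of all gene names. The median difference of the 34 genes was 0.03, and that of all gene names −0.05.

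Among the receptors, 1 of 9 tested rose, beside 11.4% of all gene names. CSF2RB, the beta chain shared by the receptors of interleukin 5, interleukin 3 and GM-CSF, was 9.25 ± 0.75 in DD pigs (SD, n = 10) and 8.63 ± 0.59 in LW pigs (SD, n = 11), or 0.63 higher (limma adjusted p = 0.024). IL4R, a chain of the interleukin 4 receptor, was 10.18 and 9.99 on average (limma adjusted p = 0.223), and the chemokine receptor CCR1 was 8.76 and 8.58 (limma adjusted p = 0.458). CSF2RB followed GATA2 over the animals at r = 0.87 after removal of chip and breed.

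Among the ligands, 3 could be tested. IL25, a cytokine of type 2 responses, was 0.48 higher in DD pigs (limma adjusted p = 0.0468) and was well above background on 8 arrays. Its call was lost in 14 of 21 fits with 1 animal left out. CCL5, a chemokine that attracts eosinophils through CCR1 and CCR3, was 11.73 ± 0.98 in DD pigs (SD, n = 10) and 12.87 ± 1.05 in LW pigs (SD, n = 11), and fell by 1.10 (limma adjusted p = 0.0195). The eotaxin CCL11 was well above background on 2 arrays, and interleukin 5 itself was not named on the array.

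Downstream of the IgE receptor, 1 of 7 genes changed, beside 21.2% of all gene names. LCP2, the adaptor SLP-76 that carries signals from the receptors for IgE and for antigen on T cells, fell by 1.01 in DD pigs (SE 0.16, limma adjusted p = 0.000243), from 12.15 ± 0.60 in LW pigs (SD, n = 11) to 11.18 ± 0.13 in DD pigs (SD, n = 10). The gamma chain FCER1G had means of 13.16 and 13.04 (limma adjusted p = 0.470), and the kinase SYK had means of 9.13 and 9.27 (limma adjusted p = 0.667). Among 4 genes of cytokine signalling, SDCBP, a scaffold protein that binds the interleukin 5 receptor alpha chain, fell by 0.59 (limma adjusted p = 0.00117). JAK2 differed by −0.02 and STAT5B by −0.07, and neither passed the threshold.

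Among the transcription factors, 3 of 6 passed the threshold, beside 21.2% of all gene names. CEBPA, a factor of granulocyte development, was 9.24 ± 0.86 in DD pigs (SD, n = 10) and 8.42 ± 0.69 in LW pigs (SD, n = 11), or 0.86 higher (limma adjusted p = 0.0185), and it followed GATA2 at r = 0.90. ID2, an inhibitor of helix-loop-helix factors, fell by 0.54 (limma adjusted p = 0.0191), and XBP1, a factor of secretory cells, fell by 0.41 (limma adjusted p = 0.036), a call that was lost in 14 of 21 fits with 1 animal left out. None of 5 genes of granules and mediators passed with limma, among them ALOX5AP of leukotriene synthesis with means of 11.77 and 11.67, the granule protein CD63 with 11.95 and 12.37, and the histamine methyltransferase HNMT with 5.02 and 5.08. The major basic protein, the eosinophil ribonucleases and the mast cell proteases were not analysed here.

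With array brightness as a covariate, LCP2 alone among the 34 genes passed the threshold in limma, with a difference of −0.95 (adjusted p = 0.017). The differences of CSF2RB, CEBPA and IL25 were then 0.02, 0.11 and 0.21, and none of these genes passed. Those of CCL5, SDCBP, ID2 and XBP1 were −0.97, −0.45, −0.34 and −0.17, and none of these passed either (limma adjusted p = 0.343, 0.0773, 0.521 and 0.851). Whether rises and falls differed in this respect was not tested. Without chip 3, SDCBP alone passed, with a difference of −0.60 (limma adjusted p = 0.0415).

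**Figure D5:**
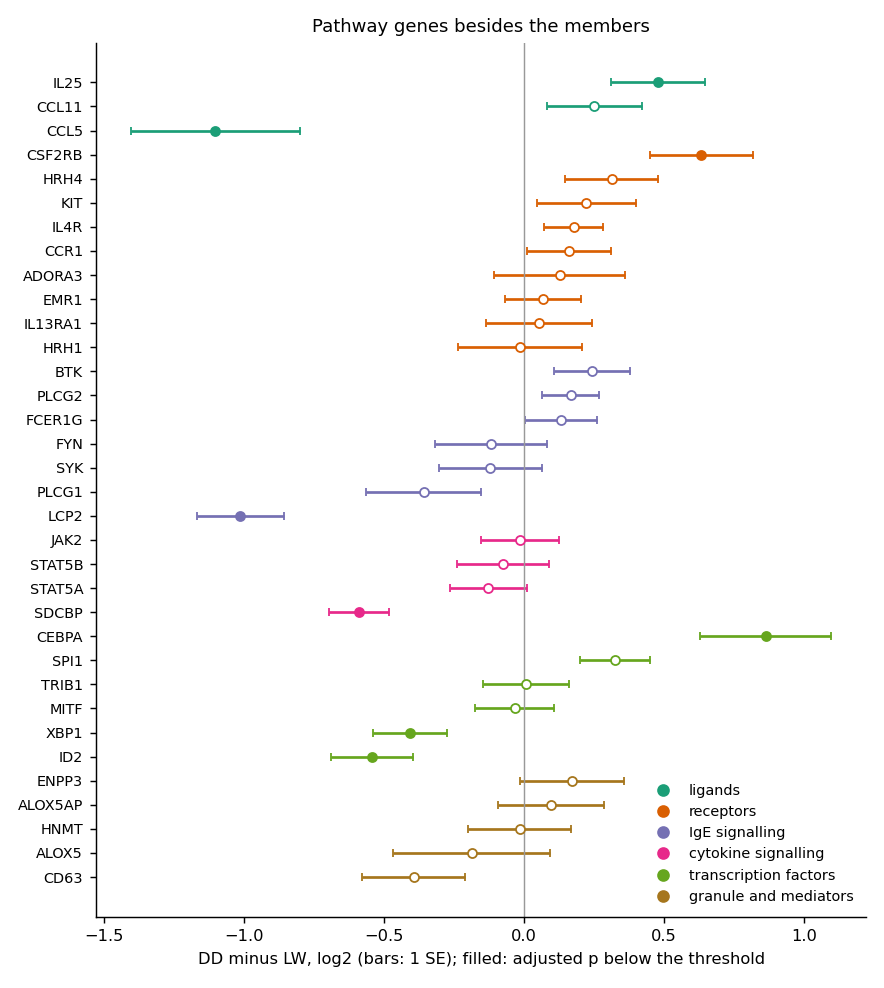
Breed difference (DD minus LW, log2, x axis) of the 34 further pathway genes tested, with 1 SE, coloured by role and filled where the limma adjusted p is below 0.05. The filled points are IL25, CSF2RB and CEBPA on the higher side and CCL5, LCP2, SDCBP, ID2 and XBP1 on the lower side.

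Markers of other blood cells were set beside GATA2. Their counts stand beside the 21.2% of all gene names that passed in either direction. Of 7 erythroid markers, EPB42, a protein of the red cell membrane, alone passed and was higher in DD pigs by 1.06 (limma adjusted p = 0.0198), and its correlation with GATA2 after removal of chip and breed was r = 0.94. The other erythroid markers ranged in r from −0.48 for SLC4A1 to 0.67 for KLF1, with 0.15 for AHSP and 0.36 for HBB. The haemoglobin chain HBB had means of 17.61 and 17.35 and AHSP had 17.46 and 17.72, and neither passed. Of 5 platelet markers, PPBP fell by 0.94 (limma adjusted p = 0.0408), a call lost in 15 of 21 fits with 1 animal left out, while ITGB3 had means of 11.90 and 12.40 and ITGA2B had 11.38 and 11.56. PPBP differed by −1.94 once brightness entered the model (limma adjusted p = 0.000361). The platelet markers correlated with GATA2 at r = 0.17 for GP6, 0.50 for ITGB3, 0.62 for ITGA2B, 0.65 for GP9 and 0.69 for PPBP. The mean level of the platelet markers was 8.27 to 9.83 in DD pigs and 8.91 to 10.09 in LW pigs, and that of the erythroid markers 10.83 to 12.12 and 10.61 to 11.81.

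The mast cell and progenitor markers did not pass. KIT, the stem cell factor receptor, had means of 6.50 and 6.28, MITF had 6.81 and 6.83, and CD34 was well above background on 4 arrays. Mean levels were 5.78 to 7.39 in DD pigs and 6.03 to 7.18 in LW pigs for 2 mast cell markers, and 4.50 to 5.79 and 4.65 to 5.12 for 3 progenitor markers. None of 7 neutrophil markers passed with limma, with a mean level of 8.20 to 9.95 in DD pigs and 8.59 to 9.88 in LW pigs. The receptor CXCR2 had means of 13.12 and 13.41, S100A12 had 10.41 and 10.51, and S100A8 had 9.70 and 9.81.

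Of 7 T cell markers, 3 fell, namely CD3D by 0.58, CD3G by 0.64 and CD247 by 0.63 (limma adjusted p = 0.0145, 0.00499 and 0.03), beside 9.8% of all gene names that were lower in DD pigs. The call of CD247 was lost in 6 of 21 fits with 1 animal left out. The T cell mean level was 8.91 to 10.19 in DD pigs and 9.28 to 10.39 in LW pigs. Of 6 monocyte markers, CD163 fell by 0.72 (limma adjusted p = 0.0228), with a mean level of 7.44 to 8.75 in DD pigs and 7.91 to 8.80 in LW pigs. Of 2 dendritic cell markers, XCR1 rose by 0.57 (limma adjusted p = 0.0233), with 7.29 to 7.93 and 6.89 to 7.84, and none of 4 B cell markers passed, with 6.17 to 8.29 and 6.42 to 8.53. With array brightness as a covariate, the differences of EPB42 and XCR1 were 0.06 and 0.08 (limma adjusted p = 0.986 and 0.96). The calls of CD3D, CD3G, CD247 and CD163 were lost in 7, 5, 9 and 6 of 18 other settings of the fit. Those of EPB42 and XCR1 were lost in 6 each. The part of these cells in the values of GATA2, CCR3 and HDC was not tested.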

How the data were processed

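Whole blood RNA of 21 pigs was measured with 1 array per pig. The intensity values deposited by the authors are spot and local background signals from Agilent Feature Extraction 10.7.3.1, with flags for signal well above background, and no spot of a member was saturated. The deposited log2 values were background corrected (normexp) and quantile normalized by the authors. Groups came from the breed in the labels, and sow and chip from the study's list of animals.

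Here the 25% of probes with the lowest mean were removed, and probes of 1 gene name were averaged. 1498 probes whose name names no gene were left out. Differences were fitted in limma 3.58.1 (R 4.3.3) with terms for breed and chip and the sow as random block (consensus correlation −0.11), with eBayes and Benjamini-Hochberg adjustment over all gene names, threshold 0.05. Single probes were fitted in the same way without the filter. Litter means of values with the chip effect removed were compared by exact permutation. The steps were tested on simulated data. The fold is that of normalized log2 values, and probes are not compared in level.

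The members and the gene lists were chosen with earlier results of these data known. Named were all members and probes, every list gene past the threshold and otherwise the 3 with the highest mean of a role or cell type, and the 3 gene names most like each member by Pearson's r. Coordinates came from RefSeq for Sscrofa11.1, and probe sequences from the deposited scanner files. Alternatives were the scanner intensities with normexp offsets of 0 and 50, cyclic loess, scaling to the 75th percentile, other filters, the probe with the highest mean, no sow block, no chip term, single chips, array brightness, trend and robust eBayes, and each animal left out. The precision is limited by the number of arrays and of litters.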

Additional observations from a re-analysis of the deposited data

Results flagged for a closer look

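In 7 groups of 10 DD values, 2 held a pig far from the others of its group, by the gap to its neighbour relative to the range, and chance flags about 1 in 20 such groups. For CCR3 the highest DD pig, DD_21, was at 9.85, above the DD median of 9.06. For the MS4A2 probe A_72_P178066 the lowest DD pig, DD_19, was at 5.29, below the DD median of 5.95. Both pigs were on chip 3, and DD_21 had the dimmest array. Groups of 11 LW values were not examined in this way.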

How the results depend on the processing

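With each animal left out in turn, GATA2 remained past the threshold, with differences from 0.63 to 0.87. CCR3 ranged from 0.32 to 0.53, HDC from 0.34 to 0.59, and MS4A2 from −0.096 to 0.032. GATA2 no longer passed without the chip term (0.71), without chip 2 (0.61) or chip 3 (0.51), within chip 1 (0.21) or chip 2 (0.79), or with array brightness (0.12). With its second probe averaged in, an alternative chosen after seeing the data, the GATA2 value was 0.37 and did not pass. That probe was at background in all but 3 pigs and differed by 0.03, so the averaged value lies between those of the probes. Which of them reads GATA2 transcripts was not tested. CCR3 passed without chip 1 (0.64) and within chip 3 (0.92), within chip 1 it was −0.012, and with array brightness it was 0.067. HDC passed without chip 2 (0.69) and within chip 3 (1.28), and with array brightness it was −0.13. The fitted values of IL5RA, 0.11 to 0.27 with 1 animal left out and −0.021 with array brightness, come from a probe at background on all arrays, and neither their size nor their sign is a measured difference.

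MS4A2 was 0.0044 when scaled to the 75th percentile, 0.052 with cyclic loess, 0.071 with the brighter probe, 0.020 without chip 3, 0.017 within chip 2, 0.038 with array brightness and 0.033 on litter means. The repeat of its probe O8565 was 0.00025 with cyclic loess. The alpha chain probe was 0.057 within chip 1, CSF2RB −0.015 within chip 1 and PPBP 0.039 within chip 3. None of these values passed. The call of CSF2RB was lost without DD_21, LW_12 or LW_18, and that of XCR1 without DD_21.

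The 7313 gene names past the threshold became 4588 without the filter, 5035 without the sow block and 1922 without the chip term. They became 526 without chip 3, 31 within chip 1, 73 within chip 2 and 753 with array brightness. With 1 animal left out they were 3758 to 9856. Without the sow block GATA2 was 0.71 and passed (SE 0.21, limma adjusted p = 0.0365). IL25 (limma adjusted p = 0.0666) and XBP1 did not pass without the sow block. The fitted correlation of siblings was negative (−0.11), and with the block the SE of GATA2 was 0.20. The block thus gave the smaller SE and the larger number of calls, and was not the stricter setting. The cause of the changed counts and calls was not tested. No paired analysis was possible because the breeds share no replicate numbers. The filter on signal well above background left IL5RA out. Cell counts were not used, and a single probe stands for GATA2, HDC and IL5RA.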
